A study of Mus musculus with 6 samples.

Results

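The mRNAs of Sytl2, Tff1, Cited1, Cnksr1, Lamb3 and Krt6a stood among the highest in Cnot3-deficient fetal hepatocytes relative to control hepatocytes. These 6 genes were grouped as epithelial. They were selected on a single contrast of the data described here, N3KO minus control before actinomycin D (ActD), out of 18193 genes with a probe set of their own. All 6 were among the 16499 genes kept by a filter on low intensity, and each gene was read from the probe set that named it alone and had the highest mean. RNA came from fetal hepatocytes of E16.5 mouse embryos in 6 groups of 1 array each. These were N3KO hepatocytes (genotype Cnot3KO, from Cnot3LKO mice) after 0, 6 and 12 h in ActD and control hepatocytes (genotype wild type in the labels) after 0, 6 and 12 h in ActD. ActD blocks transcription, so that the mRNAs left at later times are those that had not yet been degraded.

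In N3KO cells the floxed alleles of Cnot3 are deleted by Cre recombinase under the albumin promoter, which acts in the hepatic lineage and leaves other cells of the liver untouched. According to the methods, control animals could carry a floxed allele or the Cre transgene, but not the combination that deletes both copies. Both genotypes were cultured with oncostatin M and dexamethasone, which promote hepatocyte maturation. According to the study, Cnot3 was incompletely suppressed in the liver at E16.5 and efficiently suppressed by the end of culture. How many embryos contributed to an array is not given in the sources used here. On the arrays, the probe set of Cnot3 with the highest mean had intensities of 174, 174 and 146 in N3KO cells at 0, 6 and 12 h, against 296, 214 and 158 in control cells, which is 1.70-fold lower in N3KO cells at 0 h. A second probe set of Cnot3 had 155, 161 and 178 in N3KO cells and 160, 211 and 232 in control cells. The position of these probe sets relative to the floxed exons is not given in the sources used here, so they check the labels only weakly.

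Cnot3 is a subunit of the Ccr4-Not complex, which shortens the poly(A) tails of mRNAs and thereby starts their decay. Of the 6 genes, Sytl2, Tff1, Lamb3 and Krt6a belong to the equipment of polarised, secreting or stratified epithelia. Cited1 and Cnksr1 act in transcription and signalling. Sytl2 encodes a synaptotagmin-like protein that binds the small GTPase Rab27 and tethers secretory vesicles to the plasma membrane. Tff1 encodes a trefoil peptide that surface mucous cells of the stomach release together with mucin. Cited1 encodes a nuclear co-regulator that binds no DNA itself and works through the acetyltransferases Crebbp and Ep300. Cnksr1 encodes a scaffold that assembles Ras, Raf and other signalling proteins at the membrane. Lamb3 encodes the beta chain of the laminin that anchors the basal layer of stratified epithelia to the basement membrane, and Krt6a encodes a type II keratin of epidermal appendages and of wounded epidermis. Hepatocytes, by contrast, normally build their intermediate filaments from the simple epithelial keratins Krt8 and Krt18.

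The genes lie on different chromosomes. Sytl2 is on chromosome 7, Tff1 on chromosome 17, Cited1 on chromosome X, Cnksr1 on chromosome 4, Lamb3 on chromosome 1 and Krt6a on chromosome 15. To show what the starts of the genes share, RefSeq promoter windows of assembly GRCm38.p6 were read, each with 250 bases before and 50 bases after the transcription start. Of the 6 genes, 3 had an entry, with 6 windows between them. The first window of each is given 5′ to 3′ on the strand of the gene, with motif matches on either strand in capitals. They are chr4:134238350-134238649 (minus strand) for Cnksr1, chrX:102252132-102252431 (minus strand) for Cited1 and chr1:193301744-193302043 (plus strand) for Lamb3.
Cnksr1: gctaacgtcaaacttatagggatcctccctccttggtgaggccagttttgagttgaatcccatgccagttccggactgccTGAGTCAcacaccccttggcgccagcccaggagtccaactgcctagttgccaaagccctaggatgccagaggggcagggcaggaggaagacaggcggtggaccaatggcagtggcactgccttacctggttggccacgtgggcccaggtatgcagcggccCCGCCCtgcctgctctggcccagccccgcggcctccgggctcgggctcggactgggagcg
Cited1: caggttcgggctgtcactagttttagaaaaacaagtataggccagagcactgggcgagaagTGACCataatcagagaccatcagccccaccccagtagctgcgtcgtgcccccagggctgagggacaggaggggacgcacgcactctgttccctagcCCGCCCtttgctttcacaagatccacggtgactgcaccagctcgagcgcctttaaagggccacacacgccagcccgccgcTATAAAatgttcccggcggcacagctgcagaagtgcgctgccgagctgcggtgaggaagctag
Lamb3: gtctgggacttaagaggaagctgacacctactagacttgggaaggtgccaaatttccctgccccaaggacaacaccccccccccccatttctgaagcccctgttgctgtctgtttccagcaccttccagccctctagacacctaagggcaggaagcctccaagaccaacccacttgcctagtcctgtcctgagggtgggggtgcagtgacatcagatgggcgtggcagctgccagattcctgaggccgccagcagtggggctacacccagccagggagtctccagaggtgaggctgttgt
Common promoter motifs were searched on both strands. The TATA motif, which positions the start, was searched as TATAAA. The motif of AP-1 factors, which respond to growth and stress signals, was searched as TGANTCA. That of grainyhead-like factors, regulators of epithelia, was searched as AACNGGTT. The GC box, bound by Sp factors, was searched as GGGCGG, and the core site of nuclear receptors as GGTCA. None of these motifs contains another. The Cnksr1 window held an AP-1 motif that began at -170 from the start and a GC box that began at -10. The first Cited1 window held a nuclear receptor site, a GC box and a TATA motif, which began at -189, -93 and -13. No match was found in the Lamb3 windows, which overlap in part. Over all 32851 windows of the table, 13.6% held the TATA motif, 7.81% the AP-1 motif, 2.09% the grainyhead-like motif, 35.7% a GC box and 40.5% a nuclear receptor site. A TATA motif was found in 2 of the 6 windows, both of Cited1, an AP-1 motif in 1, a GC box in 2, a nuclear receptor site in 2 and a grainyhead-like motif in 0. No motif was common to the 3 genes, and GC content was 64.7% in the Cnksr1 window, 59.7% in the first Cited1 window and 59.3% in the first Lamb3 window, against a median of 52.7% over all windows.

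The values that chose the genes are given as a description, without a test. Before ActD the difference between N3KO and control cells was 8.02-fold for Sytl2, 4.0-fold for Krt6a, 3.90-fold for Tff1, 3.74-fold for Cnksr1, 3.71-fold for Lamb3 and 3.59-fold for Cited1. At this time 6 of 6 genes were over 1.5-fold higher, as were 6.71% of all genes, and nothing can be read from this count because the contrast chose the genes. Over 1.5-fold lower were 2.92% of all genes. Among genes brighter than the median of either 0 h array, the 6 occupied places 1, 4, 6, 8, 9 and 10 in the order of the difference. Just inside was Cited1, and just outside were Sfmbt2 at 3.52-fold, Peg10 at 3.51-fold and Phlda2 at 3.48-fold. The non-members between them were Ifit1, Xaf1, Mt4 and Plet1, with 5.10-, 4.03-, 3.91- and 3.86-fold.

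The genes did not start from the same level in control cells. Tff1, Cited1 and Lamb3 stood at the 86.7th, 81.6th and 66.1st percentile of the control array before ActD, so they were well above its median without loss of Cnot3 and are not called ectopic here. Krt6a, Sytl2 and Cnksr1 stood at the 46.3rd, 34.7th and 33.8th percentile of that array. In N3KO cells before ActD, Cnksr1 had the lowest place, at the 62.9th percentile, and Tff1 the highest, at the 95.9th. Percentiles place a probe set among all 45037 of the array and do not compare mRNA levels between genes.

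**Figure D1:**
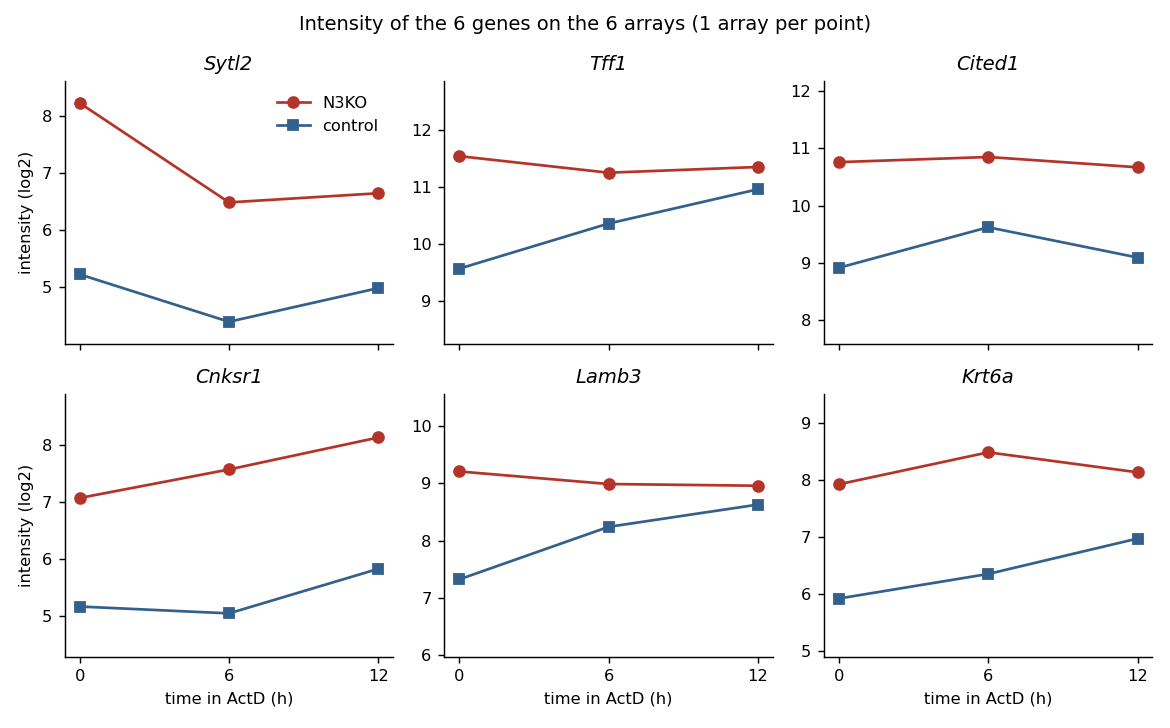
Log2 intensity of the 6 genes against hours in ActD, with N3KO (red circles) and control (blue squares) and 1 array per point, so that no error bar can be drawn. N3KO lies above control at every time for each gene, the gap of Tff1 and Lamb3 closes toward 12 h as the control line climbs, and Sytl2 in N3KO cells is lower at 6 and 12 h than at 0 h.

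The 4 arrays of 6 and 12 h in ActD did not take part in the choice. As ActD blocks transcription, mRNA present at 0 h carries over into these times, and a difference at 0 h can persist there. A pass on these arrays is therefore no independent support for the choice. They provided the only test. It was a limma fit with genotype and time as terms and Benjamini-Hochberg adjustment over all 16499 genes. Each genotype and time had 1 array, so the fit had 1 residual degree of freedom, and its p-values measure how well both times agree and not the spread between embryos. In RNA from whole cultures, fewer cells of a type and less RNA per cell cannot be told apart. On these arrays 6 of 6 genes were higher in N3KO cells at an adjusted p under 0.05, where 24.3% of all genes passed as higher and 10.9% as lower (4004 and 1806 genes). With each array centred on Gapdh these counts were 3299 and 2791, so that 54.2% of the genes that passed were higher instead of 68.9%, and 4 of the 6 genes passed, without Tff1 and Lamb3. Lamb3 was close to the threshold and Krt6a passed in 1 of its 3 probe sets. With the 0 h arrays included, which hold the contrast that chose the genes, 116 genes passed as higher and 47 as lower. At 6 h alone, 6 of 6 genes were over 1.5-fold higher, beside 17.8% of all genes, and at 12 h 4 of 6, beside 27.4% of all genes. The median difference of the 6 genes (log2) was 1.93 at 0 h, 1.66 at 6 h and 1.37 at 12 h, while that of all genes was 0.03, -0.05 and -0.03. As a guide to technical error, the difference between genotypes varied between probe sets of the same gene with an SD of 0.241 (log2) at 0 h, 0.34 at 6 h and 0.502 at 12 h over 4117 genes. These genes had more than 1 probe set above the median of all 6 arrays, and the brightest was compared with the next. Sytl2, Cnksr1 and the Krt6a set used here fell below the median on at least 1 array. Sets of a gene share their arrays, so this SD leaves out the spread between arrays and cultures. At 12 h the differences of Tff1 (0.39) and Lamb3 (0.33) were smaller than this SD.

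The secretory gene Sytl2 had the widest difference of the 6 genes before ActD. Its intensity was 298, 89.3 and 99.5 in N3KO cells at 0, 6 and 12 h, against 37.2, 21.0 and 31.5 in control cells. The lowest N3KO array lay above the highest control array, and the control value at 6 h was below the 20th percentile of its array (21.46) at that time. The N3KO to control ratio was 4.25 at 6 h and 3.16 at 12 h, and the fit gave a log2 difference of 1.87 ± 0.20 (SE), or 3.67-fold, with a limma adjusted p of 7.01e-06. In N3KO cells its signal was 3.34-fold lower at 6 h than at 0 h, the widest loss of the 6 genes in ActD, and differed by 0.16 (log2) between 6 and 12 h. With 32 added to each intensity before log2, the fitted difference was 1.12 and still passed.

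The relatives of Sytl2 were genes of the Slp family, of Rab27 and of granule release, 11 of 15 of which were measured. Of these, 3 passed as higher and 0 as lower in the limma fit (1 lower with p under 0.05 before adjustment), and the median fitted log2 difference was 0.15, beside -0.06 over all genes. For this and the following lists, 24.3% of all genes passed as higher and 10.9% as lower. A count of 3 in 11 is near the share of all genes that passed as higher. Mlph, which links Rab27a to myosin on melanosomes, had 769, 685 and 601 in N3KO cells at 0, 6 and 12 h, against 420, 246 and 116 in control cells (fitted log2 difference 1.93 ± 0.23 SE, limma adjusted p = 1.33e-05). Exph5, another Rab27 effector, had 160, 261 and 395 in N3KO cells, against 93.6, 82.3 and 99.6 in control cells (1.83 ± 0.20, limma adjusted p = 7.57e-06). The third was Stx11, a syntaxin of granule fusion, with 536, 497 and 671 in N3KO cells against 370, 201 and 210 in control cells. Both effectors had a wider ratio at 12 h than at 0 h, the reverse of Sytl2. Rab27a and Rab27b themselves did not pass, with limma adjusted p of 0.0633 and 0.905, and Sytl4, which stood 1.62-fold higher before ActD, had a limma adjusted p of 0.216.

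Tff1 was the brightest of the 6 probe sets. It had 2970, 2430 and 2610 in N3KO cells at 0, 6 and 12 h, against 762, 1320 and 1990 in control cells. The N3KO arrays remained close to each other and above all control arrays, while the control arrays ran upward with time in ActD. The ratio narrowed accordingly, with 3.90 at 0 h, 1.85 at 6 h and 1.31 at 12 h. The fitted log2 difference at 6 and 12 h was 0.64 ± 0.20 (SE), or 1.56-fold (limma adjusted p = 0.0229). It did not pass with arrays centred on Gapdh (0.50, limma adjusted p = 0.0770).

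Relatives of Tff1 that passed were lower in N3KO cells. Of 14 measured genes of trefoil and mucin secretion (18 listed), 0 passed as higher in the limma fit (0 also at an unadjusted p under 0.05) and 3 as lower, with a median fitted log2 difference of -0.28. The lower count was 1 with arrays centred on ribosomal protein genes, 1 with 32 added before log2 and 5 with arrays centred on Gapdh. The 3 of the main fit were Tff3, Tff2 and Muc5b. Tff3, the trefoil peptide of intestinal goblet cells, had 11900, 11600 and 13700 in N3KO cells, against 19700, 18800 and 22200 in control cells (fitted log2 difference -0.70 ± 0.19 SE, limma adjusted p = 0.0107). Tff2, the trefoil peptide of gastric neck cells, had 43.8, 53.5 and 51.0 in N3KO cells, against 75.3, 74.2 and 84.5 in control cells (limma adjusted p = 0.0262). For either gene every N3KO array lay below every control array. The signal of Tff2 was low, below the array median in N3KO cells and above it in control cells. Muc5ac, the mucin that surface mucous cells release with Tff1, had 120, 127 and 135 in N3KO cells and 125, 153 and 160 in control cells and did not pass (limma adjusted p = 0.319).

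**Figure D2:**
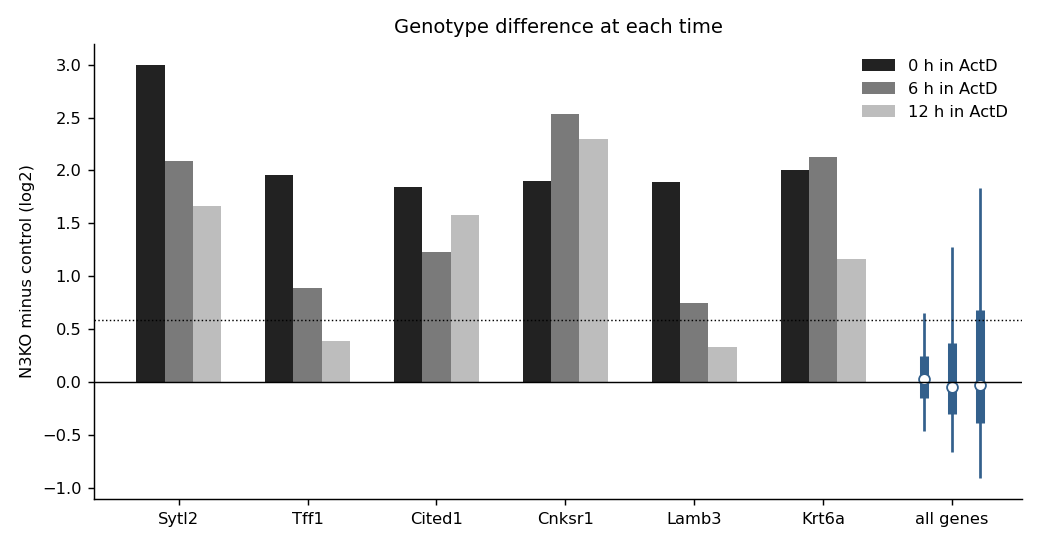
N3KO minus control (log2 intensity) for each of the 6 genes at 0, 6 and 12 h in ActD, beside the median (circle), quartiles (thick line) and 5th to 95th percentile (thin line) of all 16499 genes. The dotted line marks 1.5-fold. Each bar is 1 array against 1 array, and the bars at 0 h are those that chose the genes. Cnksr1 keeps over 2 log2 units at 6 and 12 h, while Tff1 and Lamb3 end below the dotted line.

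Cited1 changed little with time in N3KO cells and was highest at 6 h in control cells. Its intensity was 1730, 1850 and 1630 in N3KO cells at 0, 6 and 12 h, against 482, 785 and 544 in control cells. The lowest N3KO array was above the highest control array, and neither genotype ran in one direction with time. The ratio was 3.59 at 0 h, 2.35 at 6 h and 3.0 at 12 h, and the fit gave 1.41 ± 0.20 (log2, SE), or 2.66-fold, with a limma adjusted p of 6.21e-05. Its call held under the 8 alternatives that tested the 6 and 12 h arrays alone, with limma adjusted p between 5.42e-08 and 0.00454. Since Cited1 has 1 probe set, only centring and the addition of 32 changed its estimate, which was 1.27 to 1.44 there.

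Among family members and partners of Cited1, 9 of 11 were measured, and 5 passed as higher and 1 as lower, with a median fitted log2 difference of 0.92 beside 0.03 at 0 h. Cited2, a paralogue that binds the same acetyltransferases, had 5850, 3430 and 5180 in N3KO cells, against 3310, 1120 and 1370 in control cells (1.77 ± 0.20, limma adjusted p = 9.36e-06). Smad4, the common mediator of Tgf-beta signals whose activity Cited1 is known to enhance, had 2430, 1610 and 1490 in N3KO cells, against 2130, 429 and 293 in control cells (2.13 ± 0.20, limma adjusted p = 2.95e-06). Crebbp and Ep300 behaved like Smad4, with differences of 0.03 and -0.06 before ActD and fitted differences of 1.70 and 1.28. Smad4, Crebbp and Ep300 thus differed by at most 0.19 (log2) before ActD and passed afterwards. Egfr, a receptor of epithelial growth factors, was the gene that passed as lower, with 255, 235 and 270 in N3KO cells and 326, 401 and 506 in control cells. It was read from 1 of several probe sets. With the mean of probe sets, 4 genes of this list passed as higher and 0 as lower.

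Cnksr1 was the only one of the 6 genes whose fold was larger at both times in ActD than before it. Its intensity was 134, 190 and 280 in N3KO cells at 0, 6 and 12 h, against 35.9, 33.0 and 56.8 in control cells. All N3KO arrays were above, and all control arrays below, the array median. The ratio was 3.74 at 0 h, 5.76 at 6 h and 4.93 at 12 h, and the fitted log2 difference was 2.41 ± 0.20 (SE), or 5.33-fold (limma adjusted p = 1.32e-06). It was the largest fitted difference of the 6 genes. In the order of all 16499 genes by difference Cnksr1 held place 8 at 0 h, 20 at 6 h and 311 at 12 h. The signal in N3KO cells was 1.06 (log2) higher at 12 h than at 0 h, where the median gene changed by 0.08.

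Of the scaffolds and kinases that work with Cnksr1, 14 of 17 were measured. In the limma fit 7 passed as higher and 0 as lower (1 lower with p under 0.05 before adjustment), with a median fitted log2 difference of 0.49, and 0 were over 1.5-fold higher or lower before ActD. Cyth2, an exchange factor for Arf GTPases that binds Cnk scaffolds, had 586, 657 and 736 in N3KO cells, against 424, 392 and 329 in control cells (0.95 ± 0.20, limma adjusted p = 0.00170). Araf, a Raf kinase, had 541, 630 and 632 in N3KO cells, against 375, 437 and 309 in control cells (0.78 ± 0.20, limma adjusted p = 0.00746). Ksr1, the kinase-like scaffold of Raf and Mek that gave Cnk proteins their name, did not pass (limma adjusted p = 0.913), with 184, 123 and 118 in N3KO cells and 129, 117 and 130 in control cells. Cnksr3, the paralogue of Cnksr1, had 477, 174 and 203 in N3KO cells, against 587, 49.3 and 56.2 in control cells. It was thus lower in N3KO cells before ActD (-0.30, log2, no test) and passed as higher afterwards (1.83 ± 0.19, limma adjusted p = 6.18e-06).

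Lamb3 followed the course of Tff1. It had 593, 509 and 498 in N3KO cells at 0, 6 and 12 h, against 160, 302 and 397 in control cells. The N3KO arrays lay within a narrow range and above all control arrays, of which the one at 12 h came closest. The ratio was 3.71 at 0 h, 1.68 at 6 h and 1.26 at 12 h. The fitted log2 difference was 0.54 ± 0.20 (SE), or 1.45-fold, with a limma adjusted p of 0.0485, just inside the threshold. Of the 7 alternatives that tested the 6 and 12 h arrays alone, 1 kept the call, and the adjusted p ranged from 0.0261 to 0.158.

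No other laminin chain passed as higher in N3KO cells. Of 9 measured chains (10 listed), 0 passed as higher in the limma fit (0 also at an unadjusted p under 0.05) and 4 as lower, with a median fitted log2 difference of -0.49. Lama3, the alpha chain that assembles with Lamb3, had 38.8, 32 and 42.9 in N3KO cells and 34.6, 26.6 and 40.3 in control cells, below the median of every array (limma adjusted p = 0.489). The 4 that passed as lower were Lama4, Lamb1, Lamb2 and Lamc1. Lama4, a chain of vessel walls, had 106, 75.8 and 45.6 in N3KO cells, against 170, 120 and 84.4 in control cells (-0.77 ± 0.20, limma adjusted p = 0.00594). Lamc1, which is found in most laminins, had 979, 679 and 460 in N3KO cells, against 1040, 1130 and 1190 in control cells.

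Genes of hemidesmosomes and laminin receptors, 10 of 11 measured, numbered 1 higher and 4 lower, with a median fitted log2 difference of -0.42. The higher one was Itgb4, the integrin chain that binds the Lamb3 laminin at hemidesmosomes. Itgb4 had 191, 190 and 286 in N3KO cells, against 78.4, 114 and 106 in control cells (1.09 ± 0.21, limma adjusted p = 0.00102). Its partner Itga6 had 1180, 731 and 596 in N3KO cells and 1040, 941 and 783 in control cells and did not pass (limma adjusted p = 0.145). The 4 lower genes were Dst, Itga3, Itgb1 and Dag1. Dag1, the dystroglycan receptor of laminin, had 2870, 2490 and 2080 in N3KO cells, against 3910, 4400 and 3730 in control cells.

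Krt6a rested on 1 of its 3 probe sets. That set, 1422784_at, had 242, 357 and 281 in N3KO cells at 0, 6 and 12 h, against 60.5, 81.4 and 126 in control cells. The lowest N3KO array was above the highest control array, and the control arrays ran upward in ActD. The ratio was 4.0 at 0 h, 4.38 at 6 h and 2.24 at 12 h, and the fitted log2 difference was 1.65 ± 0.23 (SE), or 3.13-fold (limma adjusted p = 5.80e-05). The set 1422783_a_at had 118, 150 and 129 in N3KO cells, against 95.8, 103 and 119 in control cells. Its fitted log2 difference was 0.33, and it did not pass (limma adjusted p = 0.217). The set 1427700_x_at had 28.7, 37.1 and 33.2 in N3KO cells, against 23.0, 33.2 and 40.1 in control cells, below the median of all 6 arrays, and its fitted log2 difference was -0.06 (limma adjusted p = 0.844). The annotation names Krt6a alone for all 3 sets, and which of them follows its mRNA was not tested. The other 5 genes have 1 probe set each, so no such check exists for them.

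**Figure D3:**
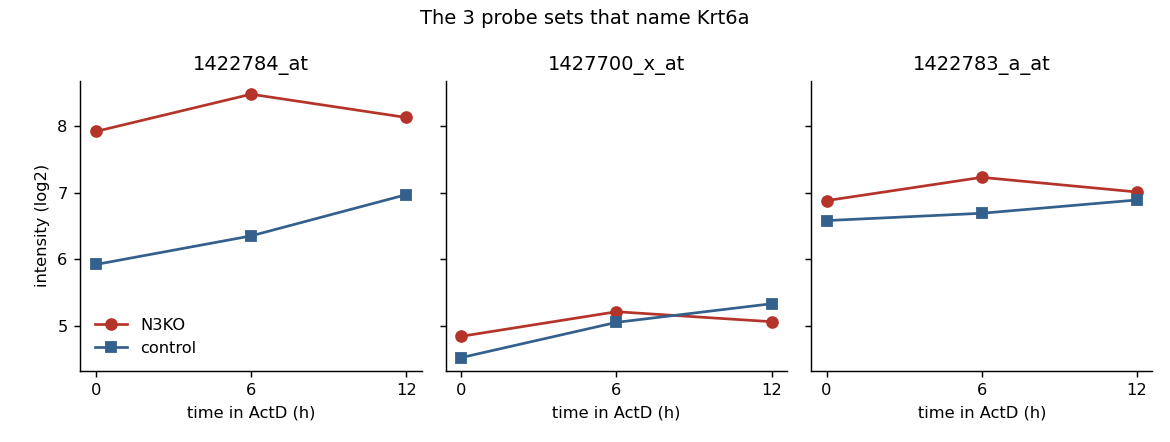
Log2 intensity of the 3 probe sets that name Krt6a against hours in ActD, with N3KO (red circles) and control (blue squares) and 1 array per point. The genotypes stand apart in 1422784_at, lie close together in 1422783_a_at, and cross between 6 and 12 h in 1427700_x_at.

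No other keratin of stratified epithelium passed. Of 16 measured (18 listed), 0 were called in either direction in the limma fit (1 higher and 2 lower with p under 0.05 before adjustment), the median fitted log2 difference was -0.24, and 9 were below the median of every array. With arrays centred on Gapdh, 2 passed as lower. Krt6b, a close paralogue of Krt6a whose mRNA the probes may share, had 48.4, 53.8 and 54.4 in N3KO cells and 49.2, 43.9 and 51.3 in control cells. Krt16, a type I keratin that pairs with Krt6a, had 29.9, 26.5 and 26.4 in N3KO cells and 29.4, 33.9 and 38.7 in control cells. Krt14 and Krt1, keratins of the basal and the upper epidermis, were likewise below the median of every array. Krt12, a keratin of the cornea, had 20.2, 244 and 155 in N3KO cells and 32.4, 270 and 230 in control cells, so that its signal was higher in ActD in both genotypes.

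Keratins of simple epithelium, which line ducts and glands, were bright on every array, and 2 of 6 passed as higher and 0 as lower in the limma fit (4 and 0 at an unadjusted p under 0.05), with a median fitted log2 difference of 0.50. Krt19, a keratin of bile ducts, had 14700, 14200 and 16300 in N3KO cells, against 6690, 8320 and 8010 in control cells (0.90 ± 0.20, limma adjusted p = 0.00215). Krt23 had 318, 399 and 524 in N3KO cells, against 134, 156 and 117 in control cells (1.76 ± 0.22, limma adjusted p = 2.31e-05). Krt20, a keratin of the intestinal and gastric surface, had 8170, 8570 and 9580 in N3KO cells and 4150, 6100 and 7040 in control cells and did not pass (limma adjusted p = 0.0744). Krt8 and Krt18, the keratins of hepatocytes, did not pass either, with limma adjusted p of 0.398 and 0.0505. Both lay high on every array, where values can differ little, so this does not show that they were unchanged. Krt18 stood 1.61-fold higher in N3KO cells at 12 h.

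Genes of epithelial junctions and their regulators formed the longest of these lists, and 18 of 36 measured genes were higher and 3 lower, with a median fitted log2 difference of 0.57, and a median of 0.50 before ActD, when 14 were over 1.5-fold higher and 1 lower. Cldn4 and Cldn6, claudins of tight junctions, had 6690, 4590 and 8260 and 1440, 1740 and 2340 in N3KO cells, against 2910, 1510 and 1610 and 593, 920 and 1100 in control cells. Their fitted log2 differences were 1.98 ± 0.22 and 1.0 ± 0.19 (limma adjusted p = 7.96e-06 and 0.000910). Esrp1, a splicing regulator of epithelia, had 131, 90.9 and 57.9 in N3KO cells, against 47.9, 37.1 and 32.1 in control cells (1.07 ± 0.20, limma adjusted p = 0.000708). The 3 that passed as lower were Cdh1, the cadherin of adherens junctions, with Dsc3 and Ivl of stratified epithelium, and with arrays centred on ribosomal protein genes 0 passed as lower. As 24.3% of all genes passed as higher, counts of this kind are given as description, and no test of the lists as such was made.

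**Figure D4:**
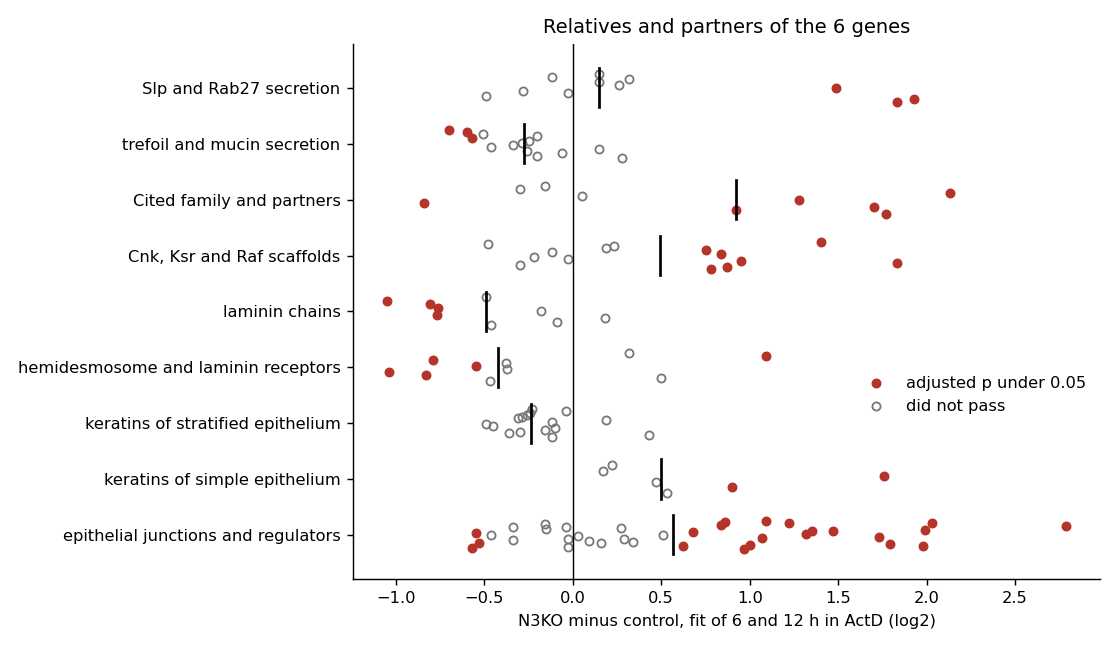
Fitted difference between N3KO and control at 6 and 12 h in ActD (log2) for each measured gene of 9 lists of relatives and partners, with genes that passed (filled red) and did not pass (open grey) and the median of each list (black bar). The 6 genes themselves are left out. The lists of epithelial junctions, of Cited1 partners and of Cnk, Ksr and Raf scaffolds lie mostly to the right of 0, and laminin chains and hemidesmosome genes mostly to the left, with Itgb4 alone at 1.09.

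Changes over time in ActD are relative to the other mRNAs of the same array, since the arrays were set to a common distribution. The interval from 6 to 12 h does not contain the arrays used for the choice. In N3KO cells 1 of the 6 genes lay above the upper quartile of all genes (0.21, log2), namely Cnksr1 with 0.55, and the others were between -0.34 (Krt6a) and 0.16 (Sytl2). In control cells 5 of 6 lay above the upper quartile (0.24), with 0.58 for Sytl2, 0.59 for Tff1, 0.78 for Cnksr1, 0.39 for Lamb3 and 0.63 for Krt6a. Cited1 was the exception there, with -0.53. No test was made of these changes. Between probe sets of the same gene this change varied with an SD of 0.169 (log2) in N3KO cells and 0.264 in control cells.

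From 0 to 12 h, which contains the arrays that chose the genes, the change in N3KO cells (log2) was 1.06 for Cnksr1, 0.21 for Krt6a, -0.09 for Cited1, -0.19 for Tff1, -0.25 for Lamb3 and -1.58 for Sytl2. The same interval in control cells gave 1.38 for Tff1, 1.31 for Lamb3, 1.05 for Krt6a, 0.66 for Cnksr1, 0.17 for Cited1 and -0.24 for Sytl2. The quartiles of all genes were -0.19 and 0.30 in N3KO cells, and -0.50 and 0.50 in control cells. As the 0 h arrays chose the genes, these changes are given as values only.

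**Figure D5:**
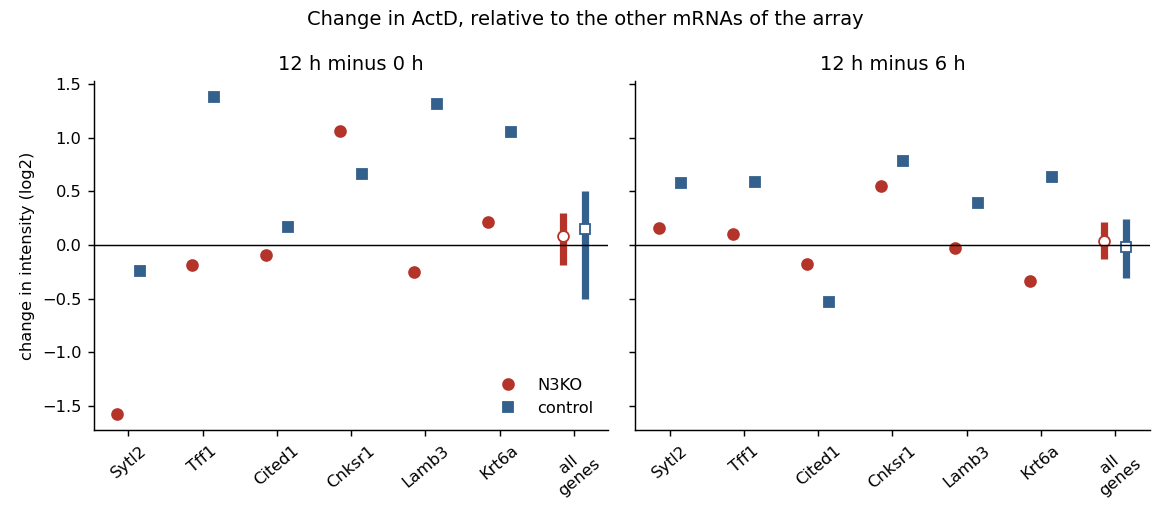
Change in log2 intensity in ActD for the 6 genes in N3KO (red circles) and control (blue squares) cells, from 0 to 12 h (left) and from 6 to 12 h (right), with the median and quartiles of all 16499 genes at the far right of each panel. The left panel contains the 0 h arrays that chose the genes. On the right, 5 control points lie above the quartile bar and Cited1 lies below it.

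The order of the 6 arrays was compared between genes as a description over 6 arrays that share their genotype contrast. Pearson's r between pairs of the 6 genes ran between 0.68 (Sytl2 and Lamb3) and 0.99 (Tff1 and Lamb3), and each pair shares the difference that chose it. Outside the 6 genes, 6006 genes with a range of at least 1 (log2) were compared with the mean of the 6 centred profiles. The most alike were H2-M3 (r = 0.988), Krt19 (0.975), Trim54 (0.974), Catsperd (0.973) and Slc52a3 (0.971). H2-M3, a class I-like antigen-presenting molecule, had 432, 466 and 454 in N3KO cells, against 154, 198 and 258 in control cells. It was also the gene closest to Krt6a (0.992). The closest to Cnksr1 was Misp, an actin-binding protein of the mitotic spindle, with 744, 892 and 1460 in N3KO cells against 297, 255 and 410 in control cells (0.994). The closest to Cited1 was Pdlim1 (0.996), to Sytl2 Blnk (0.983), to Tff1 Comp (0.968) and to Lamb3 Krt20 (0.959).

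Markers of the cells in culture were read beside these results. Hepatocyte markers, 10 of 12 measured, were above the median on every array. Their summed intensities were 188000 to 198000 in N3KO cells and 189000 to 206000 in control cells. At 0 h Alb stood at the maximum of its array in both genotypes (34200 and 35600). As the arrays were set to a common distribution, values at the top can differ little, so these sums do not measure the content of hepatocytes. In the limma fit 1 marker passed as higher (Hnf4a) and 1 as lower (Ahsg). With the mean of probe sets, or with arrays centred on Gapdh, 0 passed as higher and 1 as lower. Markers of keratinocytes, 8 of 10 measured, summed to 1620, 2110 and 2730 in N3KO cells at 0, 6 and 12 h and to 1540, 2440 and 3370 in control cells, and those of gastric mucous cells, 9 of 10 measured, to 1290, 1380 and 1520 in N3KO cells and to 1110, 1630 and 1870 in control cells. In each of these 2 lists 0 passed as higher in the limma fit (1 and 0 at an unadjusted p under 0.05) and 1 as lower, and 3 were below the median of every array. Cholangiocyte markers summed to 34400, 32700 and 38900 in N3KO cells, against 19600, 23500 and 22700 in control cells, with 2 of 10 measured passing as higher (Krt19 and Cldn4) and 3 as lower, among them Pkhd1, the fibrocystin of bile ducts. Mesothelial markers summed to 18400, 17500 and 19200 in N3KO cells, against 9870, 12300 and 12400 in control cells, with 2 of 11 measured higher (Krt19 and Podxl) and 4 lower. The sums of both lists were carried by a few bright genes, which were left out after the values had been seen. Without Krt19, Krt7 and Cldn4 the other 7 cholangiocyte markers summed to 2260, 2210 and 2690 in N3KO cells, against 2140, 2750 and 3270 in control cells. Without Krt19 the other 10 mesothelial markers summed to 3710, 3260 and 2900 in N3KO cells, against 3180, 3970 and 4380 in control cells. Both sums were thus higher in N3KO cells at 0 h and lower at 6 and 12 h. As Krt19 and Cldn4 had passed as higher, leaving them out by itself lowers the N3KO sums relative to control. These sums therefore do not measure the content of either cell type.

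Of fibroblast and stellate markers 10 of 11 measured passed as lower, of endothelial markers 5 of 11 and of macrophage markers 6 of 12, with 0 higher in each list (limma, 0 also at an unadjusted p under 0.05). Mrc1 of macrophages had 385, 320 and 165 in N3KO cells, against 794, 901 and 656 in control cells, and Pdgfrb of stellate cells 321, 79.0 and 24.8 in N3KO cells, against 587, 206 and 79.9 in control cells. Erythroid markers, 8 of 10 measured, gave 0 calls in either direction in the limma fit (1 lower with p under 0.05 before adjustment). The part of these markers in the results of the 6 genes was not tested.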

How the data were processed

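Total RNA of fetal hepatocytes was measured on Affymetrix mouse arrays, 1 array for each of 2 genotypes and 3 times in ActD. The labels and methods state that the authors processed the arrays by RMA (Robust Multi-array Average), a procedure that subtracts background, sets all arrays to a common distribution and summarises probes by set; its software version is not given in the sources used here. What they deposited are intensities on a linear scale, and log2 was taken before any comparison. There were 45037 probe sets for each of 6 arrays, with 0 values missing. The arrays had medians of 69.69 to 72.37 and 20th percentiles of 19.67 to 22.44. Arrays have no read depth, and their number limits the precision.

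Names came from the annotation of the platform, in which 34945 probe sets carried 1 symbol, 932 several and 9160 none, and 99.4% of gene identifiers were found in the RefSeq table of GRCm38.p6. Only those with 1 symbol were used to name genes. A gene was kept when its intensity exceeded the 20th percentile on at least 1 of the 6 arrays. The genotype difference at 6 and 12 h was tested with limma 3.58.1 (lmFit and eBayes) in R 4.3.3, at a Benjamini-Hochberg adjusted p of 0.05. Values at 0 h and changes in time are given without a test. Differences between probe sets of the same gene, both above the median of all 6 arrays, served as a guide to technical error. The fit was tested on simulated data drawn for the real genes. With 1 residual degree of freedom the prior variance was poorly estimated there, and many draws gave more false calls than the threshold allows, so adjusted p-values are to be read with caution.

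The genes, the 18 lists of relatives and markers and the tests were chosen with earlier results of these data known. Named are the 6 genes, Cnot3, of each list up to 3 genes with the largest difference at 0 h, and the genes whose profile was most like those of the 6. Some of the list genes with the largest difference at 0 h were left out of the text. Other genes of the lists, named for small counts or as direct partners and relatives of the 6 genes, were picked after their values were seen. Alternatives comprised other filters, choices of probe set, scaling, an offset of 32, a variance trend and inclusion of the 0 h arrays.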

Additional observations from a re-analysis of the deposited data

Results flagged for a closer look

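Tff1 and Lamb3 differed between genotypes in the direction of their change from 0 h in ActD. In N3KO cells both were lower on both ActD arrays than at 0 h, by -0.29 and -0.19 (log2) at 6 and 12 h for Tff1 and by -0.22 and -0.25 for Lamb3. In control cells both were higher on both ActD arrays, by 0.79 and 1.38 for Tff1 and by 0.92 and 1.31 for Lamb3. The change from 0 to 12 h in N3KO cells minus that in control cells was -1.57 for Tff1 and -1.56 for Lamb3. This difference was not tested, since each genotype and time had 1 array, and it contains the 0 h arrays that chose the genes. Between 6 and 12 h, without those arrays, the same difference was -0.49 for Tff1 and -0.42 for Lamb3. In this interval Tff1 changed by 0.10 in N3KO cells and 0.59 in control cells, which is the same direction. Lamb3 changed by -0.03 in N3KO cells and 0.39 in control cells. The N3KO changes of both genes were smaller than the SD between probe sets of the same gene (0.169).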

How the results depend on the processing

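The calls of Sytl2, Cited1 and Cnksr1 at 6 and 12 h held under the 7, 8 and 8 alternatives that tested these arrays alone. These genes have 1 probe set each, so other filters, choices of probe set and a variance trend left their estimates at 1.87, 1.41 and 2.41. Only centring and the addition of 32 changed them, with 1.12 to 1.91, 1.27 to 1.44 and 1.79 to 2.45. The fit with the 0 h arrays holds the contrast that chose the genes and says nothing of their stability. Tff1 did not pass with arrays centred on Gapdh (log2 difference 0.50, limma adjusted p = 0.0770) or with the 0 h arrays included (1.08, 0.0789). Lamb3 did not pass without a filter (0.54, limma adjusted p = 0.0505), with a filter at the 50th percentile (0.54, 0.0501), with a variance trend (0.54, 0.0832), centred on ribosomal protein genes (0.57, 0.0673) or on Gapdh (0.40, 0.158), with 32 added (0.50, 0.0599) or with the 0 h arrays included (0.99, 0.0913). Krt6a gave 0.33 (limma adjusted p = 0.217) in 1422783_a_at and -0.06 (0.844) in 1427700_x_at, while the mean of its sets gave 0.64 (0.0157). At single times, which leave no test, the differences at 6 and 12 h ranged from 1.66 to 2.09 for Sytl2, 0.39 to 0.89 for Tff1, 1.23 to 1.58 for Cited1, 2.3 to 2.53 for Cnksr1, 0.33 to 0.75 for Lamb3 and 1.16 to 2.13 for Krt6a. Sytl2 and Lamb3 have no probe set without a suffix for shared sequence, so that alternative gave them no value.

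Before ActD, 32 added to each intensity gave differences of 2.25 for Sytl2, 1.29 for Cnksr1 and 1.57 for Krt6a, and Krt6a had 0.87 as the mean of its sets and 0.30 and 0.32 in the other 2 sets. With each set on its own, 6747 probe sets passed as higher and 4412 as lower, out of 37937 sets tested in place of 16499 genes. Of the sets that passed, 60.5% were higher, against 68.9% of the genes that passed in the main fit. Against 4004 and 1806 genes, 116 and 47 passed with the 0 h arrays included, 1106 were lower when centred on ribosomal protein genes, and 2791 when centred on Gapdh. Centring on Gapdh moved the median difference of all genes to -0.20, against -0.06. Among the lists, the mean of probe sets gave 4 higher Cnk, Ksr and Raf genes instead of 7, 4 higher simple keratins instead of 2 and 8 lower endothelial markers instead of 5, and Itgb4 was not tested in the fit of probe sets without a suffix. The causes of these changes were not tested. No paired analysis was possible because the labels number no replicates, while time, which both genotypes share, is already a term of the fit.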
